A study of Mus musculus with 2 samples.

Results

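A set of dermal papilla cells chosen by 7 genes, among them Lhfpl3 and Adamts18, was described in dorsal skin of the mouse. Most of the cells did not show both of these genes. A barcode was a member when it had 200 to 8000 genes and at most 10% of its counts from mitochondrial genes, a count of at least 3 of the 7 selecting genes Lhfpl3, Pcdh15, Adamts18, Cyp26b1, Epha7, Msantd1 and Adamts20, a count of at least 2 of the 6 papilla genes Vcan, Rspo3, Twist1, Bmp4, Corin and Trpm3, and fewer than 100 counts of Col1a1, Col1a2 and Col3a1 together per 10000. Of the 62289 barcodes within the limits on genes and mitochondrial counts, 639 were members, 552 of them in the TP library and 87 in the control library. The barcodes that met the papilla and collagen conditions are called papilla cells here, and those with 0 to 2 of the 7 genes are called other papilla cells. They numbered 6352 in control and 2193 in TP. The members were chosen by the measured counts of these 16 genes in each cell, so the values below describe them and no test was made.

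Both groups were male C3H/HeN mice with shaved dorsal skin, aged 7 weeks when treatment began and 9 weeks when the skin was taken. The TP group received 0.5 mg of testosterone propionate per day under the skin, a model of androgenetic alopecia (AGA), and the control group received vehicle. Each group is 1 library made from the pooled skin of 15 mice, so animals cannot be told apart and no difference between the groups has a replicate check. The unit is the UMI, the tag of 1 captured molecule. The control library held 130999979 UMIs over 45709 barcodes and the TP library 166929585 UMIs over 25931, with medians of 2162 and 5166 UMIs in the barcodes kept. Members had 1112 to 28140 UMIs in control (median 4496) and 1005 to 47363 in TP (median 5899), against medians of 3038 and 7181 in the other papilla cells. The libraries shared 220 barcodes among those kept. No member barcode was a member in both, and 5 TP member barcodes also occurred among the control cells. Levels are UMIs per 1000000 UMIs of a group of cells (CPM), and the ranges in parentheses are 95% intervals that cover counting error only.

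The dermal papilla is a cluster of specialized fibroblasts at the base of the hair follicle. It sends WNT, BMP and FGF signals to the overlying epithelium, which answers with Sonic hedgehog, and it thereby sets the growth and rest of the hair. Versican, encoded by Vcan, is a proteoglycan of its matrix, and Corin is a protease of its surface. Among the selecting genes, Lhfpl3 encodes a tetraspan membrane protein, Pcdh15 a protocadherin known from the tip links of inner ear hair cells, Cyp26b1 an enzyme that degrades retinoic acid, and Epha7 an Eph receptor tyrosine kinase. Adamts18 and Adamts20 encode secreted metalloproteases of a family that includes the enzymes that cut versican, and Msantd1 encodes a protein with a Myb-like domain.

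The genes lie on separate chromosomes with the exception of Lhfpl3 (chr5:22746054-23275597, GRCm38) and Msantd1 (chr5:34914593-34926989), which share chromosome 5. Pcdh15 lies at chr10:73096277-74649831, Adamts18 at chr8:113697123-113849343, Cyp26b1 at chr6:84571414-84593908, Epha7 at chr4:28813066-28967503 and Adamts20 at chr15:94268314-94432074. Promoters of 3 genes are shown because the first gene gives the cells their name and the other genes, for a transcription factor and a chemokine receptor, stood higher in members than in other papilla cells. Each is the 250 bases before the RefSeq start in GRCm38.p6, written in the direction of the gene, with every E-box (CANNTG, the motif bound by basic helix-loop-helix factors such as Twist1) in capitals. Lhfpl3 is read from chr5:22745804-22746053 on the plus strand, Twist1 from chr12:33957421-33957670 on the plus strand and Cxcr4 from chr1:128592300-128592549 on the minus strand. The Lhfpl3 window overlaps the annotated gene A930003O13Rik.
Lhfpl3: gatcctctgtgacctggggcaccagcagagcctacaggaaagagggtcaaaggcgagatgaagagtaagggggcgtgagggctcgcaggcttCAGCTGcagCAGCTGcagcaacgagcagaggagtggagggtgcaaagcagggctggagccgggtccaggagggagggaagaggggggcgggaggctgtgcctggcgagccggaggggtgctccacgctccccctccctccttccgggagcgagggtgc
Twist1: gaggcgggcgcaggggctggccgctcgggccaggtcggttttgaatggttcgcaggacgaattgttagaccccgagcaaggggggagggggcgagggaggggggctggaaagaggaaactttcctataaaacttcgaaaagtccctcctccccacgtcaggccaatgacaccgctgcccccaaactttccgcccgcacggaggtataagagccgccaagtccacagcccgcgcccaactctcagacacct
Cxcr4: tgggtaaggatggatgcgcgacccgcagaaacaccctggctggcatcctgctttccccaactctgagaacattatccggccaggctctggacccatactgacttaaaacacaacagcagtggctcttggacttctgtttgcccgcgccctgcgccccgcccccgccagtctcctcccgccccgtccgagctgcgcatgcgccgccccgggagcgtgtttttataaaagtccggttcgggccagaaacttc
The Lhfpl3 window held 2 E-boxes, and the windows of Twist1 and Cxcr4 held 0. The motif occurred in 66.22% of all 32851 promoter windows of this length, so its presence does not set Lhfpl3 apart. Guanine and cytosine made up 67.2% of the Lhfpl3 window, 62.4% of that of Twist1 and 61.2% of that of Cxcr4.

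The name of the cells was checked first. A UMI of Lhfpl3 was found in 345 of the 552 TP members (62.5%, 58.3 to 66.6) and in 57 of the 87 control members (65.5%, 54.6 to 75.4). Adamts18 was found in 165 TP members (29.9%) and in 16 control members (18.4%). Both genes were found together in 116 TP members (21.0%) and 8 control members (9.20%), and neither in 158 (28.6%) and 22 (25.3%). The rule therefore gathered cells that share any 3 of 7 genes, and most of them did not show both genes of the name at this depth. Among other papilla cells, Lhfpl3 was found in 4.83% in TP and 5.15% in control, and Adamts18 in 1.92% and 1.15%. Keratin-rich cells, with at least 5% of their UMIs in keratin genes and fewer than 2 of the papilla genes, 1199 in TP and 135 in control, served as a measure of free RNA. They had medians of 11211 and 4611 UMIs, none of the 7 genes was counted in those of control, and in those of TP the highest share was 2.75% for Cyp26b1. As keratin-rich barcodes with 2 or more papilla genes were left out, these shares may be too low. With every cell thinned to 1000 UMIs, Lhfpl3 was found in 26.8% of the TP members and Adamts18 in 13.0%.

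Markers of the papilla outside the rule were abundant in members. All 26 genes of that list had UMIs in members of both libraries, with summed levels of 19724 CPM in TP and 27531 in control. Other papilla cells had 6350 and 13143. Among papilla cells with at least 4 of the 6 papilla genes, members had 20310 and other cells 23128 in TP. In control these sums were 28058 and 21376. The WNT inhibitor Wif1 had the highest level of the list in members, 3837 in TP and 6270 in control. Some defining markers of other skin cells were absent and others were counted. The endothelial gene Cdh5, the pericyte gene Rgs5, the T cell gene Cd3e and the Merkel cell genes Atoh1, Krt20 and Krt8 had 0 UMIs in TP members, and Cdh5, Pecam1, Ptprc, Cd3e, Sox10 and Rgs5 had 0 in control members. Of the 5 pericyte genes tested in TP, Kcnj8, Pdgfrb and Cspg4 were at least 2-fold higher in members than in other papilla cells and Rgs5 was lower, with summed levels of 126.1 and 108.8 CPM. The endothelial gene Kdr was higher as well, with 15.5 of the 19.6 CPM of its list in members. The list had 10.4 in other papilla cells, where its highest gene, Pecam1, had 3.20. The rest of the list thus summed to less in members than in other papilla cells. The Schwann cell list summed to 652.9 and 292.3, of which Ncam1, a gene that papilla cells express too, made up 586.2. The only Merkel cell gene tested, Piezo2, had 44.9 and 29.1. Of 8 dermal sheath and muscle genes 4 were higher and 0 lower (605.2 and 282.1), and of 9 dermal fibroblast genes 2 were higher and 2 lower (438.4 and 281.1), where 16.5% of all genes tested were higher and 14% lower. Against other papilla cells with at least 4 of the 6 papilla genes, and in members with as many, Pdgfrb had a ratio of 0.896, Ncam1 of 0.828 and Itga8, a sheath gene, of 0.983, while Kdr had 9.73. On that base 0 of 3 pericyte genes were past 2-fold, and 2 of 7 sheath and muscle genes were higher and 0 lower (609.3 and 485.3). There 1 of 6 fibroblast genes was higher and 0 lower (425.6 and 391.9), where 1.87% of all genes were higher and 3.91% lower. Keratinocyte transcripts were present. The 9 epidermal and outer root sheath genes, with the suprabasal keratins Krt1 and Krt10 among them, summed to 4461 CPM in TP members and 2248 in control members. Krt10 made up 1988 and 892.4 of these sums. The 9 genes summed to 21297 and 6912 in other papilla cells, and to 52859 and 39618 in the keratin-rich cells. Over all cells they summed to 22457 and 8052, so other papilla cells carried keratinocyte transcripts at close to the level of the whole library. The papilla genes outside the rule summed to 2153 and 3971 over all cells, less than in other papilla cells. The name papilla cell thus rests on the rule. The immune marker Cd74 stood at 39.1 in TP members (204 UMIs) and 1.38 in control members (1 UMI). It stood at 5.07 in the 488 TP members with at least 4 of the 6 papilla genes, so most of its UMIs lay in the other members. Among barcodes with at least 3 of the 7 genes, 1 in control and 9 in TP failed the collagen limit, and the same numbers failed the papilla condition. Of the members, 65 in TP (11.8%) and 19 in control (21.8%) were among the barcodes with the largest share of artificial doublets among their neighbours. Of the other papilla cells 14.1% and 17.2% were. These barcodes were kept.

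The 7 selecting genes differed in level among themselves, and each stood higher in members by construction. Cyp26b1 had 521.9 CPM in TP members (502.5 to 541.9), 228.6 in control members, and 45.92 and 29.96 in the other papilla cells of TP and control. Pcdh15 had 490.8 and 161.1 in TP and control members, against 32.5 and 23.3. Lhfpl3 had 347.5 (331.7 to 363.9) and 139.1, against 7.63 and 17.5. Epha7 followed with 309.5 and 155.6, against 21.5 and 21.7. Adamts18, Adamts20 and Msantd1 were counted least. Adamts18 had 143.3 CPM in TP members and 34.4 in control members, against 3.797 and 3.931. Adamts20 had 115.5 and 41.3, and Msantd1 had 62.0 and 15.2 (11 UMIs in control). All 7 were thus counted at a higher CPM in TP members than in control members, while the levels in other papilla cells were at most 45.9 CPM in both libraries. A single cell held up to 117 UMIs of Pcdh15 and 87 of Lhfpl3 in TP, and up to 8 and 6 in control. The 7 genes came in 75 combinations in TP. The most frequent was Pcdh15, Cyp26b1 and Epha7 in 66 cells (11.96%), followed by these 3 genes with Lhfpl3 in 40 cells, and 36 cells (6.52%) had all 7. In control 31 combinations occurred, led by Lhfpl3, Cyp26b1 and Epha7 in 13 cells.

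The threshold of 3 genes cut through a graded series of counts. The median of Adamts18, Msantd1 and Adamts20 in TP members was 0 per 10000 UMIs. With genes counted this sparsely, the numbers cannot tell a continuum of cells from distinct kinds. In TP, 1270 papilla cells had none of the 7 genes, 573 had 1, 350 had 2, 229 had 3, 151 had 4, 83 had 5, 53 had 6 and 36 had 7. In control the numbers were 4692, 1347, 313, 63, 20, 3, 1 and 0, and the 0 of 6439 papilla cells with all 7 allows a share of up to 0.0466% at the floor of 3 counts. Cells just outside the rule, with 2 genes, were thus 12.75% of the papilla cells in TP and 4.86% in control, and cells just inside it were 8.34% and 0.978%. In TP the median UMI number was 5806 with 2 genes, 5593 with 3 and 13638 with 7, so the cells with all 7 genes were also the deepest. In control 72.4% of the members had exactly 3 genes (61.8 to 81.5), and in TP 41.5% had (37.3 to 45.7). Members with 5 to 7 genes were 4 of 87 in control (4.598%) and 172 of 552 in TP (31.2%).

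**Figure D1:**
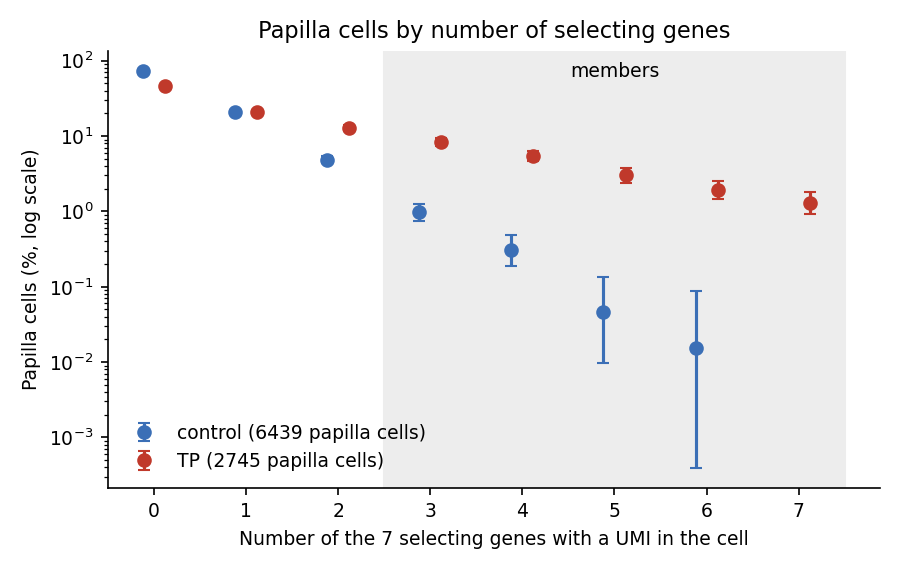
Share of papilla cells (percent, log scale) by the number of the 7 selecting genes with a UMI in the cell, with 95% Clopper-Pearson intervals, in control (6439 papilla cells) and TP (2745). Members lie in the grey area, and the TP points lie above the control points from 2 genes upwards. Control has no point at 7 genes because no cell had all 7.

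Members were a larger share of the TP library than of the control library. They were 0.206% of the control cells (0.165 to 0.254) and 2.75% of the TP cells (2.53 to 2.99), a ratio of 13.4 (10.7 to 17.0). Barcodes that met the papilla and collagen conditions were 15.2% of the cells in control and 13.7% in TP, shares that may include cells of other kinds. Members were 1.35% of these barcodes in control (1.08 to 1.66) and 20.1% in TP (18.6 to 21.7). After each cell was thinned to 1000 UMIs, 12 of 36882 control cells and 123 of 19154 TP cells still met the rule, a ratio of 19.7 (10.9 to 39.2). Thinning left out 5362 control and 891 TP cells. Among papilla cells with at least 4 of the 6 papilla genes, the shares were 2.11% in control and 37.1% in TP. Without the barcodes with the largest share of artificial doublets among their neighbours, the ratio was 15.1. The ratio was 4.75 when 2 genes were enough and 28.4 when 4 were required. Outside the papilla conditions, 2 of 35805 control cells and 18 of 17300 TP cells had at least 3 of the genes. With 1 library per group, the treatment and the library cannot be told apart.

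Levels of other genes moved with the number of selecting genes across TP papilla cells, and they fell into groups. Sox18, a transcription factor of the early papilla, had 1.52 CPM in cells with none of the 7 genes, 45.8 with 3 and 184.5 with 7. Ptch1, the Sonic hedgehog receptor and a target of its signal, had 116.2, 1138 and 2215 at the same steps. Bmp7, a BMP ligand, had 31.2, 79.1 and 241.3. The highest value of these genes was in the cells with all 7. Slc1a1, a glutamate and cysteine transporter, had 1.47, 18.01 and 126.2, and the muscarinic receptor gene Chrm2 had 0.621, 34.4 and 124.6. Cxcr4, the receptor of the chemokine CXCL12, had 0.339 (6 UMIs), 13.1 (24 UMIs) and 58.4 (37 UMIs). Keratin transcripts and depth moved along the series too. Cells at 1% keratin or more were 59.3% with none of the genes, 6.99% with 3 and 2.78% with 7, and the median UMI number was 9758, 5593 and 13638. Among strict papilla cells, where these shares were 17.1%, 6.84% and 2.78%, Sox18 had 8.45, 46.0 and 184.5 CPM, Ptch1 359.8, 1159 and 2215, and Chrm2 4.47, 38.7 and 124.6. The part of keratinocyte transcripts and of depth in the series was not tested.

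Other genes were highest before the end of the series and low with all 7 genes. The agouti gene a, whose product turns melanocytes to yellow pigment, had 132.2 CPM in cells with none of the genes, 2172 with 2, 2276 with 3 and 118.3 with 7. Vip, for vasoactive intestinal peptide, had 204.4 with 2 genes, 127.7 with 3 and 0 with 7. Fgf10, a growth factor for the hair epithelium, was at 662.5 with 2, 476.9 with 3 and 159.3 with 7. Sostdc1, a BMP and WNT inhibitor, was at 3079, 2146 and 378.6, and Sfrp2, a WNT inhibitor, at 202.7, 100.9 and 7.89. Igfbp3, an IGF binding protein, had its highest value at 4 genes with 1013, and 37.9 at 7. Among strict cells Fgf10 (1208), Sostdc1 (3808) and Sfrp2 (256.1) were highest with 1 gene, while a (2502), Vip (242.4) and Igfbp3 (1054) were highest with 3, 2 and 4. Sox2, a transcription factor of the papilla of certain hair types, was at 128.6 with 2, 147.6 with 5 and 45.7 with 7.

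**Figure D2:**
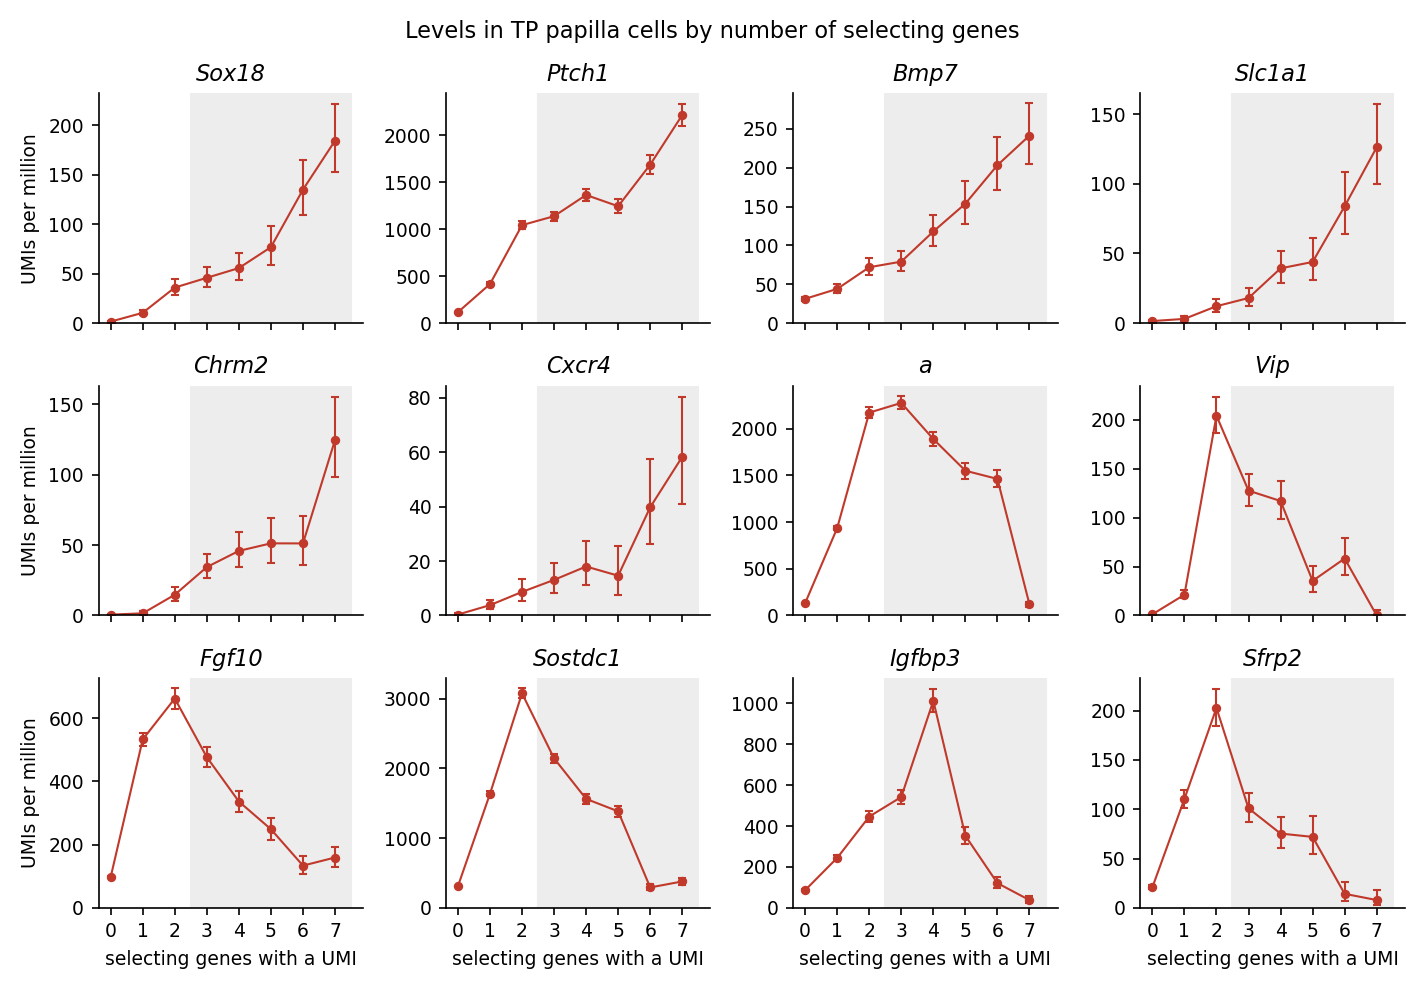
Level (CPM, with 95% Poisson intervals) of 12 genes outside the rule in TP papilla cells with 0 to 7 of the selecting genes, with members on the grey area. Sox18, Ptch1, Bmp7, Slc1a1, Chrm2 and Cxcr4 have their highest value at 7 genes, while a, Vip, Fgf10, Sostdc1, Igfbp3 and Sfrp2 have theirs at 2 to 4 genes. Among papilla cells with at least 4 of the 6 papilla genes, which are not drawn, Fgf10, Sostdc1 and Sfrp2 were highest with 1 gene.

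The 172 TP members with 5 to 7 genes were set beside the 380 with 3 or 4. Of 9790 genes with at least 50 UMIs in both groups together, 1% were at least 2-fold higher in the former (98 genes) and 2.81% at least 2-fold lower (275), with a median log2 ratio of 0.01. Among the 26 papilla genes outside the rule, 2 were higher and 5 lower, with a median of -0.35. Prom1, the gene of the stem cell surface protein CD133, was 3.78-fold as high (2.33 to 6.31) and Sox18 2.56-fold (2.09 to 3.14). Rspo4, a WNT agonist, had a ratio of 0.210 (0.136 to 0.313), Vip 0.263, Sostdc1 0.383, Fgf10 0.440 and Ndnf 0.474. Other genes higher with 5 to 7 genes were Prokr2, a prokineticin receptor (4.36), Heyl, a Notch target (5.66), the BMP ligand Bmp3 (2.77), Adamts15 (2.34) and the retinal reductase Dhrs3 (2.26). The smooth muscle gene Myh11 had a ratio of 0.0354 (0.00720 to 0.106), and the immune gene Cd74, the only gene tested of its list, 0.0653. Of 7 dermal sheath and muscle genes tested, Myh11 and Acta2 were lower and 0 were higher, and the list summed to 551.5 CPM with 5 to 7 genes and 643 with 3 or 4. The median UMI number was 7626 with 5 to 7 genes and 5488 with 3 or 4, and the part of depth in these ratios was not tested.

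Within TP members genes differed in the share of cells in which they were counted. This share also depends on the level of a gene, which was 1413 CPM for Ptch1 and 23.6 for Cxcr4. A low share alone therefore does not show that a gene was restricted to a few cells. Ptch1 was counted in 94.4% of the TP members and the WNT pathway factor Lef1 in 94.2%. Sox2 was counted in 40.8%, Sox18 in 33.3% and Cxcr4 in 16.1%. The agouti gene a was counted in 37.5%, and the 10% of cells highest in it held 88.7% of its UMIs. Vip was counted in 5.25% of the members, a share that by itself places all of its UMIs in the highest 10%. The proliferation marker Mki67 was counted in 14.9%, with 91.4% of its UMIs in the highest 10%. In control members Ptch1 was counted in 82.8%, Lef1 in 92.0%, a in 58.6% and Mki67 in 42.5%.

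Members were then compared with other papilla cells within each library, gene by gene. In TP, 16.5% of the 13338 genes with at least 50 UMIs were at least 2-fold higher in members (2195) and 14% at least 2-fold lower (1871), with a median log2 ratio of 0.10. In control 8.07% of 13620 genes were higher and 14.4% lower (1957), with a median of 0.04. A gene at 0 UMIs in a group was counted as past 2-fold, and with the floor of 3 counts in its place 1528 genes were lower in control, while the control count of higher genes and both TP counts did not change. With comparison cells weighted to the depth of the members, 1950 genes were higher and 2116 lower in control, so the control shares depend on that choice. The comparison cells were not equally pure, and their keratinocyte transcripts were close to the level of the whole library. In TP, 41.2% of other papilla cells but 6.70% of members had at least 1% of their UMIs in keratin genes, and in control 18.4% and 2.30% had. The main counts and ratios are therefore also given for papilla cells with at least 4 of the 6 papilla genes, called strict papilla cells here, where 9.20% of the 826 other cells and 6.97% of the 488 members of TP were at that keratin level. On that base 1.87% of 11651 genes were higher in TP members and 3.91% lower, with a median log2 ratio below 0.01. In control, with 77 members and 3568 other cells, 2.95% of 12544 genes were higher and 9.05% lower. The part of the keratinocyte transcripts in the first set of ratios was not tested.

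The genes highest in members over other papilla cells in TP included receptors, channels and transporters. Chrm2 had 53.0 CPM in TP members (46.9 to 59.6) and 2.10 in other papilla cells, a ratio of 25.3 (18.8 to 34.6). In control it had 31.7 and 4.80, a ratio of 6.59 (4.04 to 10.3), and among strict papilla cells of TP the ratio was 7.77 (5.63 to 10.9). Slc1a1 had 49.1 and 2.77 in TP, a ratio of 17.7, with 4.32 in control and 6.19 among strict cells. Prokr2 stood 23.4-fold higher in TP, 6.30-fold among strict cells and 6.05-fold in control (4 UMIs in the control members). Sncb, for beta-synuclein, stood 19.1-fold, 5.22-fold and 11.6-fold higher (4 UMIs in the control members). Kcnj3, a potassium channel gene, had 72.7 CPM in TP members and 6.09 in other papilla cells, a ratio of 11.9, and 3.22 among strict cells. Asic2, an acid-sensing ion channel gene, had a ratio of 15.0. The sodium pump partner Nkain4 had a ratio of 16.7, and Tmem215, for a transmembrane protein, 12.8.

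The same set held genes of glycan enzymes and a surface protein. Galnt9 (13.9) and Galntl6 (12.4) belong to the family that starts O-linked glycans, and St8sia2 (13.6) builds polysialic acid. Galntl6 was as far apart in control, with 41.3 CPM in members and 2.66 in other papilla cells, a ratio of 15.6 (9.81 to 24.1). Prom1 had 16.9 CPM in TP members and 1.11 in other papilla cells. The ratio was 15.3 (9.87 to 24.2), with 4.71 among strict cells. Its control ratio of 3.15 rested on 3 UMIs in members, with an interval of 0.621 to 9.98. For the 15 genes of the set, which Sox18, Adamts15 and Cxcr4 complete, the ratio in TP lay between 11.9 and 25.3 over all papilla cells and between 3.22 and 7.77 among strict cells.

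**Figure D3:**
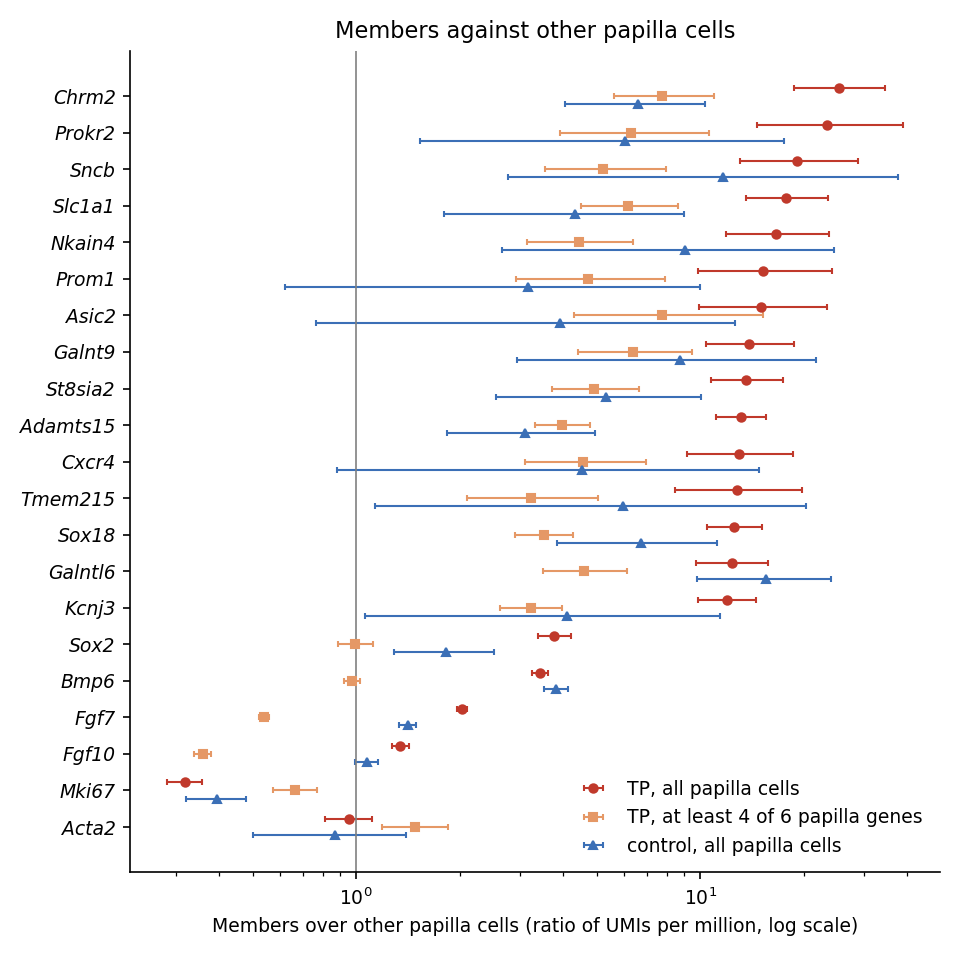
Ratio of the level in members to that in other papilla cells (log scale, with 95% intervals) for the 15 genes highest in TP members and for 6 genes by which the study describes papilla cells. Circles stand for TP, squares for TP papilla cells with at least 4 of the 6 papilla genes and triangles for control. The 15 genes were chosen for high ratios in TP and the same direction in control, and the control intervals of Prom1 and Cxcr4 include 1. Among the other 6, Fgf7 and Fgf10 lie above 1 over all TP papilla cells and below it in the squares. Sox2 and Bmp6 lie above 1 over all TP papilla cells too, and in the squares at 0.996 and 0.973, with intervals that include 1.

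Transcription factors of the papilla were next. Of 28 tested, 23 were higher and 2 lower in TP members over all other papilla cells, beside 16.5% and 14% of all genes, with a median log2 ratio of 1.96 beside 0.10. Among strict papilla cells 4 were higher and 0 lower, beside 1.87% and 3.91% of all genes, with a median of 0.41: Sox18, Foxd1, Prdm1 and Tbx18. Sox18 had 81.9 CPM in TP members (74.3 to 90.1) and 6.53 in other papilla cells, a ratio of 12.6, and 3.52 among strict cells (2.91 to 4.28). In control it had 24.8 and 3.68, a ratio of 6.74, and 4.24 among strict cells. Prdm1, for a repressor also known as Blimp1, had 141.8 and 25.4 in TP, with 2.22 among strict cells and 2.26 among those of control. Twist1 is among the 6 papilla genes of the rule, a condition that members and other papilla cells both met. It had 459.2 CPM in TP members and 195.6 in control members. A UMI of Twist1 was found in 78.6% of members and 35.4% of other papilla cells in TP, and in 59.8% and 19.9% in control. Sox2 had 109.0 CPM in TP members and 28.9 in other papilla cells (3.77, 3.37 to 4.21), but among strict papilla cells it had 109.2 and 109.6 (0.996, 0.888 to 1.12). Its higher level over all papilla cells was thus not seen among the strict ones.

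Hedgehog response genes came next. Of 10 hedgehog genes, 5 were higher and 1 lower in TP, with a median log2 ratio of 1.10, where 16.5% of all genes were higher and 14% lower. In control 2 were higher and 0 lower, with a median of 0.45, beside 8.07% and 14.4% of all genes. Among strict cells 2 were higher and 0 lower in TP, beside 1.87% and 3.91% of all genes. In control 1 was higher and 0 lower among strict cells, beside 2.95% and 9.05% of all genes. Ptch1 had 1413 CPM in TP members (1381 to 1445) and 263.2 in other papilla cells, a ratio of 5.37, with 1.86 among strict cells. In control it had 965.4 and 352.5, with ratios of 2.74 and 2.09. Gli1, a factor that both carries and reports the signal, had 107.4 and 18.9 in TP, ratios of 5.68 and 2.42. Hhip, which binds hedgehog, was higher in TP over all papilla cells and stood at 0.944 among strict ones.

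Of 19 BMP genes 9 were higher and 0 lower in TP, beside 16.5% and 14% of all genes, and 10 did not pass. In control 6 of 18 were higher and 1 lower, beside 8.07% and 14.4%. Among strict cells of TP 17 could be tested, of which Gdf10 and Bmp7 were higher and Sostdc1 was lower. Of all genes 1.87% were higher there and 3.91% lower. Gdf10, a BMP3-like ligand, had 170.2 CPM in TP members and 23.2 in other papilla cells, ratios of 7.34 and 2.09, and 155.6 and 33.2 in control, ratios of 4.69 and 2.97. Bmp7 had 136.4 and 37.6 in TP, ratios of 3.63 and 2.93. In control it had 42.7 and 44.9, a ratio of 0.951 (0.643 to 1.36). The difference between the libraries was not tested. Bmp6 depended on the comparison cells. It had 487.2 and 142.2 in TP, with a ratio of 3.43 over all papilla cells and 0.973 (0.923 to 1.03) among strict ones, and 931.0 and 244.7 in control, with ratios of 3.81 and 2.46. Bmp4, a rule gene, had ratios of 4.46 in TP and 2.03 among strict cells.

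WNT genes showed no single direction. In TP 13 of 33 were higher and 6 lower, with a median log2 ratio of 0.28, where 16.5% and 14% of all genes were. Among strict cells 3 of 31 were higher and 3 lower, where 1.87% and 3.91% of all genes were. The inhibitor Dkk2 had 248.5 CPM in TP members and 63.6 in other papilla cells, ratios of 3.91 and 2.82, and 147.4 and 36.3 in control, ratios of 4.06 and 4.20. The ligand Wnt5a had ratios of 4.61 and 1.91 in TP and 2.60 and 1.95 in control. The transcription factor Tcf7 had 46.2 and 21.3 in TP, ratios of 2.17 and 2.16. Rspo4, Sfrp1 and Sfrp2 were lower among strict cells of TP, with ratios of 0.303, 0.360 and 0.311. In control Rspo4 was higher in members, with 444.8 and 182.0 and a ratio of 1.58 among strict cells (1.40 to 1.77).

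For FGF genes the result depended on the comparison cells. In TP 3 of 13 FGF genes were higher and 2 lower over all papilla cells, shares near the 16.5% and 14% of all genes. Among strict cells, where 1.87% and 3.91% of all genes passed, 0 of 12 were higher and 3 lower: Fgf10 and the feedback inhibitors Spry1 and Spry4. Fgf10 had 323.1 CPM in TP members and 240.0 in other papilla cells, but 333.1 and 931.0 among strict cells, a ratio of 0.358 (0.339 to 0.378). In control its ratios were 1.07 and 0.641. Fgf7 had 931.9 and 459.8 in TP, and 954.6 and 1764 among strict cells, ratios of 2.03 and 0.541. The receptor gene Fgfr1 was higher over all papilla cells, with a ratio of 5.59, and had 1.76 among strict ones.

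Genes that act beside the selecting genes were looked at by family, against the same shares of all genes, 16.5% higher and 14% lower in TP and 1.87% and 3.91% among strict cells. Of 12 retinoid genes tested in TP, Rarb, Dhrs3 and Crabp1 were higher and Aldh1a1 was lower. Dhrs3 had 95.2 CPM in TP members and 36.1 in other papilla cells, ratios of 2.64 and 2.73, and a ratio of 0.781 in control (0.468 to 1.23). Aldh1a1, which makes retinoic acid, had 2.88 and 7.59 in TP (0.379, 0.208 to 0.641, and 0.119 among strict cells) and 9.64 and 23.7 in control. Crabp1, a retinoic acid binding protein gene, had ratios of 2.55 and 0.691 in TP. Of 15 ADAMTS genes, 9 were higher and 1 lower in TP with a median log2 ratio of 1.32, and 4 were higher and 1 lower among strict cells. Adamts15 had 103.8 and 7.91 in TP, ratios of 13.1 and 3.97, and 26.2 and 8.45 in control, ratios of 3.10 and 2.09. Adamts4, for another versican-cutting enzyme, had ratios of 10.1 and 4.66 in TP. Adamtsl1 had 90.8 and 18.7 in TP but 17.9 and 35.3 in control. Of 19 Eph receptor and ephrin genes, 5 were higher and 5 lower, and among 18 tested in strict cells Ephb1 was higher, with a ratio of 2.11, and 4 were lower. Of a list of 10 genes of the tip link, which holds Pcdh15 itself, 4 could be tested in TP. Cdh23, for the cadherin that binds protocadherin 15, had ratios of 1.98 (1.22 to 3.15) and 0.611 (0.359 to 1.02) in TP, and of 3.15 in control (4 UMIs in members, 0.826 to 8.61). Tmie had ratios of 0.377 and 0.602 in TP, and Ush1g and Lhfpl5 had 0 UMIs in TP members.

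Matrix and other signal genes followed, where 16.5% of all genes were higher and 14% lower in TP, 8.07% and 14.4% in control, and 1.87% and 3.91% among strict cells of TP. Of 17 collagens outside the rule, 14 were higher and 0 lower in TP, 10 were higher and 0 lower in control, and among strict cells of TP Col6a1, Col6a2 and Col25a1 were higher. Col6a1 had 196.3 CPM in TP members and 33.0 in other papilla cells, ratios of 5.95 and 2.39, and 100.5 and 32.6 in control, ratios of 3.09 and 2.22. Of the collagens used in the rule, Col1a2 had a ratio of 3.48 and Col3a1 of 2.41 in TP, and 1.25 and 0.816 among strict cells. With Col1a1 they summed to 1436 CPM in TP members and 519.9 in other papilla cells, far below the limit of the rule. Of 14 TGF-beta genes 6 were higher and 0 lower in TP, and 1 of 13 was higher and 0 lower among strict cells. Of 9 IGF genes 5 were higher and 0 lower over all papilla cells, and 1 of 7 was higher and 0 lower among strict cells. Igfbp5, the most abundant of them, had 1122 and 363.4 and a ratio of 0.850 among strict cells. Igfbp3 had 504.4 and 152.1, ratios of 3.32 and 3.13, and in control 63.4 and 56.0, a ratio of 1.13 (0.825 to 1.52). As the mean over cells of ln(counts per 10000 + 1), which gives each cell the same weight, it was lower in TP members than in other papilla cells, with a difference of -0.1136. Of 11 Notch genes 4 were higher and 3 lower in TP, and 2 were higher and 1 lower among strict cells. The ligand Dll1 had 16.9 and 4.94 in TP, ratios of 3.42 and 4.99, and 0 UMIs in control members.

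The CXCL12 axis holds 3 genes. Cxcr4 had 23.6 CPM in TP members (19.6 to 28.2, 123 UMIs) and 1.82 in other papilla cells, a ratio of 13.0 (9.18 to 18.6). Among strict cells it had 24.6 and 5.37, a ratio of 4.57 (3.09 to 6.94). In control it had 4.13 (3 UMIs) and 0.910, a ratio of 4.54 with an interval of 0.877 to 14.9, so the control members were too few to place it. The ligand gene Cxcl12 had 4.41 and 7.43 in TP and 4.13 and 13.7 in control. Ackr3, for a second receptor of the chemokine, had 5.95 and 17.2 in TP. Its ratio was 0.345 (0.231 to 0.497), with 0.662 among strict cells (0.395 to 1.09).

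Cell cycle and epithelial genes came last, where 14% of all genes were lower in TP, 14.4% in control and 3.91% among strict cells of TP. Of 16 cell cycle genes, 0 were higher and 11 lower in TP with a median log2 ratio of -1.52, and 6 were lower in control. Among strict cells Ccnb2 alone was past 2-fold lower, and the median was -0.38. Mki67 had 57.8 CPM in TP members and 181.5 in other papilla cells, ratios of 0.318 (0.282 to 0.358) and 0.666 (0.575 to 0.770), and 137.7 and 350.5 in control, ratios of 0.393 and 0.503. Of the 15 genes lowest in TP members, 5 were keratin or keratin associated genes (Krt33a, Krt33b, Krt72, Krt87 and Krtap7-1). The other 10 were Crnn, Ces2f, Ifitm6, Cxcr2, Spns2, Npy, Slc6a14, Aox4, Gabrp and Sytl2. Crnn and Krt33b had 0 UMIs in TP members and were at least 9.28-fold and 7.35-fold lower against a floor of 3 counts. Among strict cells the ratio of Krt33a was 1.01 (0.539 to 1.86) and that of Krtap7-1 1.01 (0.570 to 1.76). All 9 epidermal and outer root sheath keratinocyte genes and all 7 inner root sheath genes were past 2-fold lower in TP. Among strict cells 6 of the former and 1 of the latter were. The former summed to 4149 CPM in members and 8796 in other cells there, and the inner root sheath genes to 573.5 and 877. Of the hair matrix and shaft genes, 7 of 8 were lower over all papilla cells, and among strict cells 0 of 7 were lower and Krt31 was higher. The keratin shares of the groups, given with the counts over all genes, moved with these values. Over all papilla cells Acta2, a smooth muscle gene, had 37.2 and 39.2 in TP.

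Members were also set beside 2 other kinds of TP papilla cells that carried pairs of genes. Against the 408 cells with both Fgf10 and Sostdc1, 2.64% of 11013 genes were higher in members and 3.52% lower, with 8 of 26 papilla genes outside the rule higher and 3 lower, the latter being Fgf7 and the pair by which those cells were picked. Sox18 was 8.16-fold (5.63 to 12.3) and Adamts15 8.86-fold as high, Ptch1 had 1413 and 365.0 CPM and Bmp4 494.6 and 140.2. Fgf7 had a ratio of 0.486, Sfrp2 0.206 and Trpm3 0.296. Against the 71 cells with both Ndnf and Rspo4, 9.83% of 9988 genes were higher and 5.11% lower. Members had more Igfbp3 (504.4 and 36.5), Sox2 (109.0 and 6.09, the latter 2 UMIs) and Twist1 (459.2 and 124.8), and less Bmp6 (487.2 and 1157), Corin (959.0 and 2228) and Spry1 (20.9 and 194.8). Ptch1 stood at 1413 and 1555, a ratio of 0.908 (0.830 to 0.996). Sox18, with 81.9 and 42.6, had a ratio of 1.92 there, smaller than against the cells with Fgf10 and Sostdc1. In control, against the 1848 cells with Fgf10 and Sostdc1, 3.64% of 11318 genes were higher in members and 8.19% lower. Bmp4, Trpm3, Twist1 and Corin are papilla genes of the rule, so their values here only describe the members. Cells with both Vip and a were 4 in control and 6 in TP and were not compared.

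Members were then placed by genes outside the rule. Papilla cells with at least 1000 UMIs, 2699 in TP and 6184 in control, were thinned to 1000 UMIs and placed by 20 principal components computed without the rule genes. In TP, 57.3% of the 20 nearest papilla neighbours of a member were members on average, where members were 20.45% of all papilla cells. The share was 10.95% around other papilla cells and 3.21% around cells with none of the 7 genes. It was 33.6% around cells with 2 of the genes, 46.7% around those with 3 and 71.5% around those with 5 to 7. The shares had no break at the threshold of 3 genes. As the genes were counted sparsely, this cannot tell a continuum from distinct kinds of cell. In control it was 8.33% around members and 0.881% around other papilla cells, where members were 1.41% of all. Cells at 1% keratin or more were 41.2% of the other papilla cells and 6.70% of the members in TP. With those cells left out the share around TP members was 59.1%, where members were 28.8% of all, and it was 17.1% around other papilla cells. Among strict papilla cells it was 60.5% around members and 26.1% around other cells, where members were 37.3% of all.

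**Figure D4:**
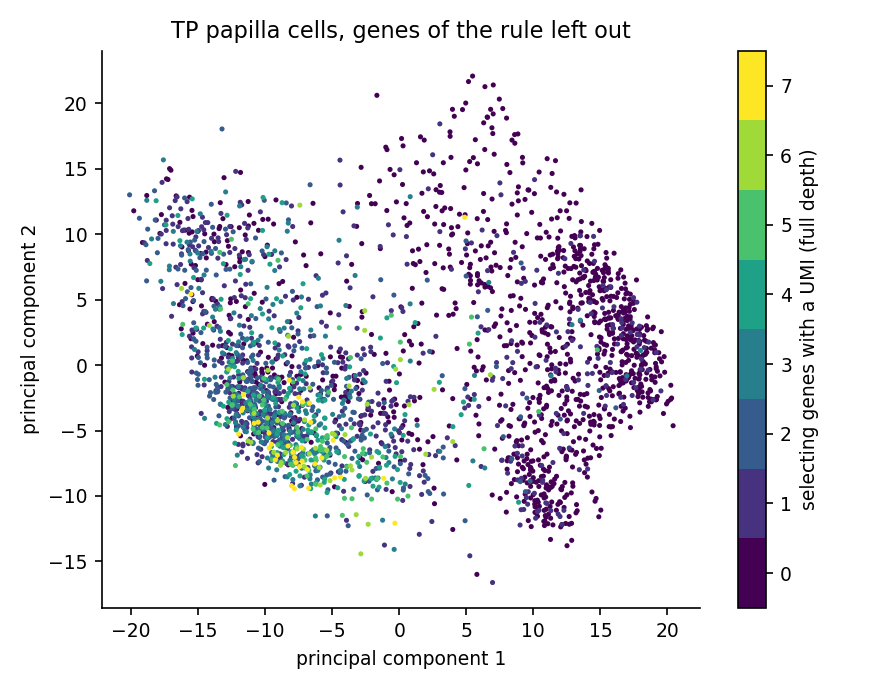
The 2699 TP papilla cells with at least 1000 UMIs on the first and second principal components, computed after thinning to 1000 UMIs and without the genes of the rule. Colour gives the number of the 7 selecting genes with a UMI at full depth. Most cells with many of these genes lie in a region that also holds cells with 0 to 3 of them, and a few lie far from it. Cells at 1% keratin or more, 41.2% of the other papilla cells and 6.70% of the members, are included.

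Finally, members of TP were set beside members of control. Of 10243 genes with at least 50 UMIs, 5.48% were at least 2-fold higher in TP members (561) and 4.63% lower (474), with a median log2 ratio of -0.10. Scaling by TMM factors shifts all log2 ratios by 0.13 upwards here, and by 0.18 downwards for members over other papilla cells in TP. Of the 7 selecting genes 6 were higher and 0 lower, by 2.28-fold for Cyp26b1 to 4.16-fold for Adamts18. These genes chose the members, so their values only describe the choice. Cells with 5 to 7 of the genes were 4.598% of the members in control and 31.2% in TP. Epha7 was 1.99-fold as high. Of the 26 papilla genes outside the rule, Sox18 (3.31, 2.07 to 5.63), Prom1, Ndp and Sox2 (2.03) were higher, and Rspo4, Fgf10 and Ndnf were lower. The members of the libraries differed in the number of selecting genes, with exactly 3 in 72.4% of control members and 41.5% of TP members. With exactly 3 genes in both libraries, 338 genes were higher and 224 lower. Sox18 rose with that number in TP, and ratios at exactly 3 genes are not given for Sox18, Prom1, Ndp, Sox2 and Ndnf. Rspo4 had 41.6 CPM in TP members and 444.8 in control members, a ratio of 0.0936 (0.0784 to 0.112). It was 0.166 when cells with exactly 3 of the genes were used in both libraries. Fgf10 had 323.1 and 933.7 (0.346), and 0.543 with exactly 3 genes, while Ndnf had 525.2 and 1424 (0.369). Cxcr4 had 23.6 and 4.13, a ratio of 5.71 (1.91 to 28.1), and 3.33 with exactly 3 genes, where the control level rests on few UMIs.

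Lists of genes were then compared between members of the libraries, where 5.48% of all genes were higher in TP and 4.63% lower. Of 13 immediate-early genes, which answer to stimuli within minutes, 12 were higher in TP members and 0 lower, with a median log2 ratio of 1.52. Fos had 3852 CPM in TP members and 1325 in control members, Egr1 1878 and 652.8, and Zfp36 650.3 and 92.3. The list summed to 13694 and 4798 in members, 8443 and 2925 in other papilla cells, and 8293 and 3163 over all cells of TP and control. The difference was thus present across the libraries, and its part in the members' values was not tested. Of 11 FGF genes 0 were higher and 4 lower, the feedback inhibitor Spry1 among them with 20.9 and 166.6 (0.126, 0.0960 to 0.164). The FGF list had a smaller sum in TP outside the members too, with 2667 and 4047 CPM in members, 1263 and 3002 in other papilla cells, and 678.1 and 1159 over all cells of TP and control. Of 13 cell cycle genes 0 were higher and 4 lower, and Mki67 had 57.8 and 137.7. That list summed to 340.8 and 647.3 in members, 898.5 and 1307 in other papilla cells, and 1054 and 1937 over all cells, so its sum too was smaller across the TP library. The part of these library-wide differences in the members' values was not tested. No hedgehog gene of 9 was past 2-fold in either direction. Of 9 epidermal and outer root sheath keratinocyte genes 3 were higher in TP members and 0 lower. Their list summed to 4461 and 2248 in members and 22457 and 8052 over all cells.

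Single genes far apart between members of the libraries were often at few UMIs in control. Dusp2, for a phosphatase, had 242 UMIs in TP members and 1 in control members, a ratio of 33.7 with an interval of 5.995 to 1337. Tnn, for the matrix protein tenascin-N, had 119 and 0 UMIs and was at least 5.53-fold higher against a floor of 3 counts, and the potassium channel gene Kcnn2 had 107 and 0 and was at least 4.97-fold higher. Klk7, Krt16, Cd74, Kcnb2, Hspb6, Adh6a and Dll1 had 0 or 1 UMI in control members too. Over all cells Cd74 stood at 81.76 CPM in TP and 25.98 in control, and the part of this difference in the members' values was not tested. Levels over all cells are not given for the others. Kcnj3 had 72.7 CPM in TP members and 5.51 in control members (4 UMIs), and Igfbp3 504.4 and 63.4, a ratio of 7.96 (5.95 to 10.9). This ratio of Igfbp3 rests on summed UMIs. With each cell given the same weight, Igfbp3 was lower in TP members than in other papilla cells, and that measure is not given for TP over control members. At the low end, Spink6, for a protease inhibitor of the skin, had 3.84 CPM in TP members and 117.1 in control members, a ratio of 0.0328 (0.0191 to 0.0538). The cannabinoid receptor gene Cnr1 had 2.11 and 56.5, Cyp1b1 9.02 and 92.3, and the lipase gene Lpl 8.63 and 84.0. The control members rest on 87 cells, so ratios to them carry wide intervals.

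**Figure D5:**
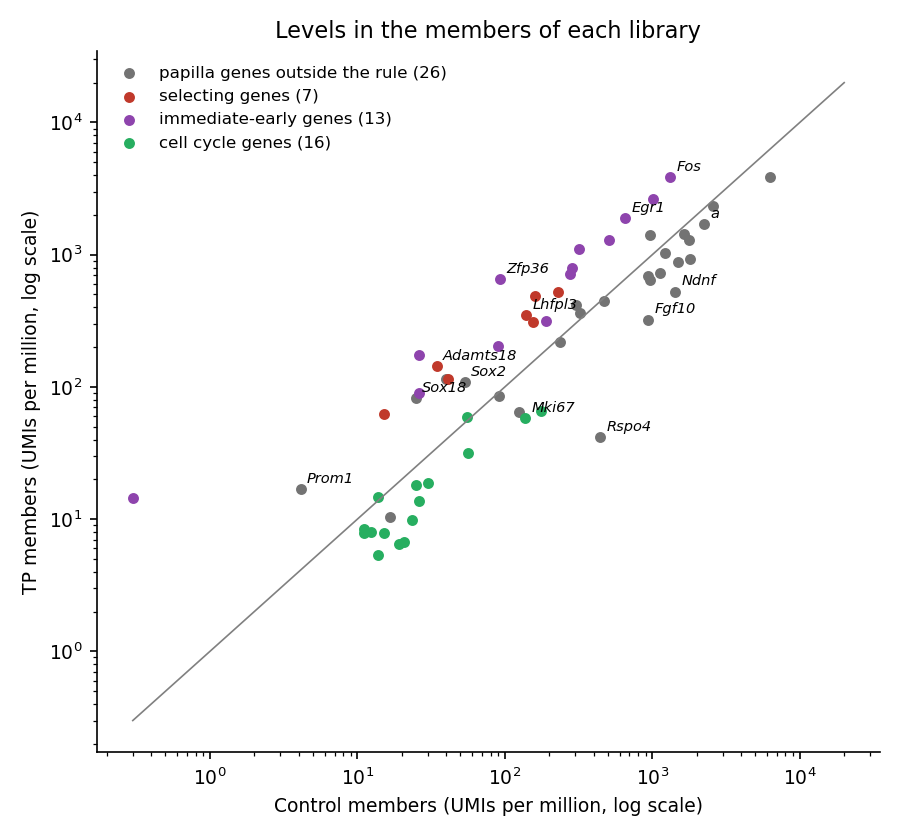
Level in TP members against level in control members (CPM, both axes log scale) for the 26 papilla genes outside the rule, the 7 selecting genes, 13 immediate-early genes and 16 cell cycle genes. The line marks equal levels, the immediate-early and selecting genes lie above it, and Rspo4 lies farthest below it. The leftmost point is Egr2, which had 0 UMIs in control members and is drawn at the edge.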

How the data were processed

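The libraries of control and TP skin were used, whereas TP + Ab is not analysed here. The skin was processed by the authors, who digested the skin with collagenase D, lysed red blood cells, enriched cells on Percoll, made Chromium droplet libraries and ran Cell Ranger 8.0.1 on mm10 (GRCm38). The deposited files hold whole-number UMI counts for every gene in every barcode, not normalized and before the study's filters, for 32285 genes.

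Members were chosen by the rule in the text. The members, the gene lists and the comparisons were chosen with earlier results of these data known. For each group of cells, the UMIs of a gene were added up and scaled to the group's total. Genes with at least 50 UMIs in both groups together were counted as different past a ratio of 2, with no test, since each condition is 1 library. A gene at 0 UMIs in 1 of the groups counted as past that ratio whatever the floor, and the medians of log2 ratios were taken after adding 1 UMI to each group. Levels have exact Poisson intervals at 95%, shares have Clopper-Pearson intervals, ratios have exact intervals from the conditional binomial, and a fold printed against a count of 0 uses the floor of 3 counts. Cells thinned to 1000 UMIs served for shares of cells and for neighbours. Doublets were called by the share of artificial doublets among the nearest neighbours of a barcode and kept in the main values. Artificial doublets were 25% of the merged data, and 30 components, the nearest 1% and a call of 7.5% of barcodes were used.

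Named genes are those of the rule, the 15 highest and 15 lowest ratios of members over other papilla cells in TP (genes of at least 100 UMIs with the same direction in control), up to 4 genes with at least 20 UMIs in TP members from each of the lists and any list gene at 0, the 10 highest and 10 lowest ratios of TP over control members with at least 50 UMIs, and the genes by which the study describes papilla cells. Other genes of the lists were named after their values had been seen. Alternatives varied the number of selecting and papilla genes, the denominator, depth, scaling, the count minimum, keratin-carrying cells, doublets and the number of neighbours. The steps were checked on simulated counts with known ratios. Python 3.11.15, numpy 2.4.6, scipy 1.17.1, pandas 2.3.3, scikit-learn 1.9.0 and matplotlib 3.10.9 were used, and edgeR 4.0.16 in R 4.3.3 gave TMM factors. Gene positions and promoters come from RefSeq on GRCm38.p6, matched by symbol. Some genes of the lists are not reported here by name.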

Additional observations from a re-analysis of the deposited data

Results flagged for a closer look

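For 6 genes the ratio of members over other papilla cells had intervals wholly above 1 in 1 library and below it in the other. The difference between the libraries was not tested. All 6 are among the genes named here, and no count over all genes tested is given. Abca8a, Lpl, Stk32a, S100a8 and Kcnb2 were named for extreme ratios of TP over control members. Abca8a, for a lipid transporter, had a ratio of 0.426 in TP and 1.539 in control. Lpl had 0.4862 in TP and 1.64 in control, Stk32a 0.2867 and 1.517, and S100a8 0.525 and 3.83. These 4 genes were lower than other papilla cells in TP members and higher in control members. Adamtsl1 went the other way with 4.862 in TP and 0.5065 in control. Kcnb2 had a ratio of 3.686 in TP and 0 in control, where 0 UMIs were counted in members and the level was at least 1.33-fold lower than in other papilla cells. Among strict papilla cells the control ratios moved to 1.07 for Abca8a (0.866 to 1.31), 1.02 for Lpl (0.777 to 1.32), 0.926 for Stk32a (0.637 to 1.31) and 0.623 for Adamtsl1 (0.319 to 1.10), so that the control side of these 4 genes was no longer apart from 1. S100a8 stayed at 2.46 (1.71 to 3.45).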

How the results depend on the processing

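No paired analysis was possible because each condition is 1 library. TP over control gave no ratio for genes with 0 UMIs in control members, among them Dll1, Egr2, Hspb6, Kcnb2, Kcnn2, Krt16 and Tnn. The ratio of member shares was 4.752 with 2 of the genes required, 28.36 with 4, 19.74 after thinning, 31.01 after thinning with papilla cells as the base and 17.58 among strict papilla cells. Members over other papilla cells in TP had 1438 genes higher at a minimum of 200 UMIs, 360 without cells at 1% keratin or more and 218 among strict cells, and 1066 and 456 lower under the last 2. In control 1950 were higher with comparison cells weighted by depth, 655 at 200 UMIs, 545 without keratin cells and 370 among strict cells, and 1172 were lower at 200 UMIs and 1135 among strict cells. TP over control members had 937 genes higher with 4 of the genes required, 888 at a minimum of 20 UMIs, 197 at 200 and 338 with exactly 3 of the genes, and 836, 153 and 224 lower under the last 3. Against cells with Fgf10 and Sostdc1, 244 genes were lower in TP without keratin cells. The UMI minimum changes how many genes enter a count, and the cause of the other shifts was not tested.

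Of the values of single genes under the alternatives, 1369 were counted as within their interval, 900 as beyond it and 27 as turned in direction. The 27, named below, do not hold every turn. Col3a1, Fgf10, Sostdc1 and Cdh23 also had ratios above 1 over all TP papilla cells and below 1 among strict cells. Among strict cells the TP ratios turned for Bmp6 (0.9731), Cdkn1c (0.848), Crabp1 (0.6912), Dsg4 (1.205), Fbn1 (0.6967), Fgf7 (0.541), Hhip (0.9443), Hoxc13 (1.266), Igfbp5 (0.8498), Itga8 (0.9827), Krt31 (2.079), Krt33a (1.008), Krtap7-1 (1.006), Ncam1 (0.8276), Pdgfrb (0.8957), S100b (0.7748), Sox2 (0.9958) and Syt6 (0.5954). Without keratin cells they turned for Crabp1 (0.969), Fbn1 (0.9213), Fgf7 (0.7691), Krtap7-1 (1.134) and Syt6 (0.8851), and in control for Krt1 (1.035) and Sema3d (1.038). As the difference of means of ln(counts per 10000 + 1), which was computed for single genes, members less other papilla cells in TP, Igfbp3 had -0.1136 and Tnn -0.0181. The cause was not tested. Strict papilla cells, neighbours without keratin cells, the floor for genes at 0, exactly 3 genes, thinning with the papilla base and the checks on other kinds of papilla cells were chosen after seeing the data.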
